A study of Mus musculus with 10 samples.

Results

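The Ms4a family encodes small membrane proteins of immune cells, and 8 of its genes were followed in microglia, the resident macrophages of the brain, 24 hours after a systemic injection of bacterial lipopolysaccharide (LPS). The genes were Ms4a4a, Ms4a4b, Ms4a4c, Ms4a6b, Ms4a6c, Ms4a6d, Ms4a7 and Ms4a14, matched by name to 8 of 40789 genes in the count table. They were chosen by their family name and with their difference between LPS and saline mice, and their spread among LPS mice, already known, so their levels are a description and carry no test. The LPS group held 5 mice that received 4 mg/kg LPS into the peritoneum, and the control group held 5 mice that received saline. All 10 mice were females of 2 to 3 months on the C57BL6/J background with the genotype CX3CR1+/egfp. That is, both groups carried 1 copy of the fractalkine receptor gene replaced by a green fluorescent reporter. Cells with a high reporter signal were sorted from the perfused cortex after a Percoll gradient, so other cells that express the reporter could enter the gate. Each library came from 1 mouse, and mice are numbered by replicate within their group.

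Proteins of this family cross the membrane several times and sit in the cell surface or in endosomes, where several of them associate with other receptors. The founding members are the B cell antigen CD20, encoded by Ms4a1, and the beta chain of the high-affinity receptor for immunoglobulin E, encoded by Ms4a2. In humans the gene cluster carries variants linked to the risk of Alzheimer's disease and to the level of soluble TREM2, a microglial receptor, and MS4A4A is expressed by macrophages.

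All 8 genes lie on mouse chromosome 19 (GRCm38), in a cluster of 678.6 kb between positions 10962289 and 11640851 that holds 19 Ms4a genes of the count table. In map order the listed genes are Ms4a14, Ms4a7, Ms4a4a, Ms4a4c, Ms4a4b, Ms4a6c, Ms4a6b and Ms4a6d. The last 6 occupy 229.3 kb, from 11375488 to 11604804, and Ms4a4d lies among them. The proteins fall into close pairs and distant ones. Translated from the GENCODE M21 transcript with the longest coding part, Ms4a4b and Ms4a4c were 84.5% identical over 226 aligned residues. Ms4a6b was 72.9% identical to Ms4a6c and 71.3% identical to Ms4a6d, and Ms4a6c and Ms4a6d were 65.0% identical. Ms4a4a was 47.7% identical to Ms4a4c and 45.9% to Ms4a4b. All other pairs of the 8 lay between 27.3% and 39.6%.

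RefSeq promoters (GRCm38.p6, 250 bases before to 50 after a start site) were at hand for 7 of the 8 genes, with 2 start sites for Ms4a7. The promoters of Ms4a6b and Ms4a6c were 85.3% identical over 225 aligned bases, and those of Ms4a4b and Ms4a4c 81.9% over 281. The 250 bases upstream of the start of 4 genes are printed because these genes differ in how they varied among LPS mice, as described further on. All 4 are on the plus strand, 5′ to 3′, and capitals mark matches to the motifs searched.
Ms4a6b, chr19:11518309-11518558: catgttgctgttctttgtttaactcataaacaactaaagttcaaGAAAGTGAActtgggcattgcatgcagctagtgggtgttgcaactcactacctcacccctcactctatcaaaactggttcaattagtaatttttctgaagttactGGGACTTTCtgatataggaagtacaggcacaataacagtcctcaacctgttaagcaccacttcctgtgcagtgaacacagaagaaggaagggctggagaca
Ms4a6c, chr19:11469118-11469367: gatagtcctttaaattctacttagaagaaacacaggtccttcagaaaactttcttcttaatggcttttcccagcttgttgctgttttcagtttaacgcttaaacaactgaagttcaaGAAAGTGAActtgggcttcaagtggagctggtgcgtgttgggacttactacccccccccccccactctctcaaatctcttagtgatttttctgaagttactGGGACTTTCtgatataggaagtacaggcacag
Ms4a4a, chr19:11375238-11375487: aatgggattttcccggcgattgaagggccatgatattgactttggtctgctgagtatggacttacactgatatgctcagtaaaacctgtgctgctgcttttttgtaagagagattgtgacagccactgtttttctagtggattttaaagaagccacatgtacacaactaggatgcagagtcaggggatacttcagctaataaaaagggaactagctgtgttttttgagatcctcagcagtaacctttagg
Ms4a4c, chr19:11407411-11407660: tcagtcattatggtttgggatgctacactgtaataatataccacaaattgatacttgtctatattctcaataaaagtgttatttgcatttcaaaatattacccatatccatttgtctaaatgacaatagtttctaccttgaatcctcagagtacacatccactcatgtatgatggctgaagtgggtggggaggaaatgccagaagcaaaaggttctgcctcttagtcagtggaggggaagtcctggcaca
The motifs were searched on both strands over the whole window of 300 bases. The core of the interferon-stimulated response element, GAAANNGAA, matched in Ms4a6b from 206 bases and in Ms4a6c from 133 bases upstream of the start, and in both Ms4a7 promoters. It is held by 8.56% of 32851 mouse promoters. The kappa B sequence GGGACTTTC matched in Ms4a6b from 101 bases and in Ms4a6c from 32 bases upstream, and 0.353% of promoters hold it. No promoter of the listed genes held the PU.1 sequence GAGGAAGT (3.20% of promoters), the gamma-activated site TTCNNNGAA (8.30%) or the other kappa B sequence GGGAATTTC (0.259%). None of the 5 motifs was found in the promoters of Ms4a4a, Ms4a4b, Ms4a4c and Ms4a14. Only these letters were searched, with N for any base. Other forms of the same sites were not looked for and may be present. Unmarked in the printed Ms4a4a sequence, for example, is gggattttcc, another kappa B form, near its upstream end. The share of promoters that hold it was not counted. No match overlapped another. A match describes letters, not binding.

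The libraries held 12928007 to 15332121 counts in LPS mice and 11577295 to 15274421 in saline mice. Values are CPM, counts scaled to a common library size with TMM factors. Where a level carries ±, it is the mean and SD of the 5 mice of a group. Of a list of 10 microglial markers all were detected in every library, and their sum was 15329 to 36941 CPM in LPS mice and 60726 to 72047 CPM in saline mice. Of these markers 7 were called lower and 0 higher in LPS mice (edgeR quasi-likelihood test, adjusted p under 0.05), with P2ry12, a purinergic receptor, at 1367 to 3898 CPM in LPS mice and 16548 to 24739 CPM in saline mice. Of all tested genes 22.4% were called higher and 22.5% lower. Monocyte markers summed to 47.9 to 83.7 CPM in LPS mice and 9.68 to 21.8 CPM in saline mice. Of the 6 that were tested 3 were higher (Fn1, Itgal and F13a1) and 2 lower (Ccr2 and Spn) in LPS mice. The defining monocyte gene Ly6c2 stayed at or below 0.634 CPM in all libraries. Border macrophage markers summed to 811 to 2080 CPM in LPS mice and 615 to 895 CPM in saline mice. Of the 6 tested, Stab1, Dab2, Siglec1 and Cbr2 were higher in LPS mice and 0 were lower. Mrc1 (7.32 ± 2.22 CPM in LPS mice, 10.3 ± 1.84 CPM in saline mice) and Folr2 were not called. Cd163, Pf4 and Lyve1 did not pass the filter. Cd163 had 1 count in LPS mice and 21 in saline mice, Pf4 29 and 38, and Lyve1 8 and 2. LPS mouse 4 stood apart, with the lowest microglial sum and the highest border macrophage sum of its group. That border macrophage sum was mostly Stab1 (1842 CPM), and Dab2 and Siglec1 were also highest in LPS mouse 4. By contrast, Mrc1 (4.37 CPM), Cbr2 (2.28), Folr2 (0.697) and Pf4 (0.0634) were lowest there among LPS mice. Cd163 and Lyve1 had no counts in it. Folds are therefore also given without LPS mouse 4. In sorted bulk RNA, fewer cells of a type and less RNA per cell cannot be told apart.

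The Ms4a4 genes had little RNA in saline mice and far more in LPS mice. Ms4a4a (Entrez gene 666907, 11375488 to 11392915), a macrophage protein that in mice and humans associates with the beta-glucan receptor dectin-1, had 92.8, 202, 336, 1138 and 1168 CPM in LPS mice 1 to 5, against 3.82, 7.98, 5.33, 1.93 and 4.77 CPM in saline mice 1 to 5. The groups did not overlap, and LPS mice 4 and 5 held several times the level of the other LPS mice. The means were 587 ± 524 CPM in LPS mice and 4.77 ± 2.21 CPM in saline mice, 123-fold apart (log2 fold change 6.42 ± 0.78 SE, from log2 CPM with a prior count of 2). Without LPS mouse 4 the fold was 94.3, without LPS mouse 5 it was 92.7, and without LPS mouse 1 it was 149. With each library's trend over gene length removed, the log2 fold change was 5.80.

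Ms4a4c (Entrez gene 64380, 11404717 to 11427246), which is often used as a marker of mouse monocytes, had 102, 45.6, 157, 61.9 and 131 CPM in LPS mice 1 to 5, against 3.75, 2.63, 5.33, 2.75 and 6.48 CPM in saline mice. All LPS mice lay above all saline mice, and here LPS mice 3, 5 and 1 were the high ones. The means of 99.4 ± 46.3 CPM in LPS mice and 4.19 ± 1.68 CPM in saline mice were 23.7-fold apart (log2 fold change 4.46 ± 0.41 SE), and 26.0-fold without LPS mouse 4. Ms4a4b (Entrez gene 60361, 11443558 to 11463549), best known from mouse T cells, was close to the limit of detection, with 11, 11, 30, 58 and 12 counts in LPS mice and 1, 1, 1, 0 and 0 counts in saline mice. The group totals of 122 and 3 counts gave a ratio of 42.5, and its 95% interval of 14.2 to 209 covers counting error only. Without LPS mouse 4 the ratio was 29.3. The T cell markers summed to 0.157 to 2.18 CPM in LPS mice and 0.561 to 3.39 CPM in saline mice, with Lck the highest at 1.87 CPM or less. Cd8a (9 counts) and Cd2 (7 counts) were found in LPS mouse 4 only, the mouse with the most Ms4a4b counts. Among LPS mice Cd3g was also highest there, Lck and Cd3d were highest in LPS mouse 1, and Cd3e and Cd4 had no counts in LPS mouse 4. The part of T cells in the level of Ms4a4b was not tested. Ms4a4b shares 4.19% of its 50-base stretches with other Ms4a transcripts, Ms4a4c among them, and Ms4a4c shares 8.48% of its own, so single reads of such stretches cannot be placed with certainty.

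The 3 Ms4a6 genes held most of the family's RNA in both groups. Ms4a6d (Entrez gene 68774, 11586606 to 11604804), a protein of macrophages, had 2104, 1963, 3289, 3124 and 4571 CPM in LPS mice 1 to 5, against 318, 270, 254, 195 and 305 CPM in saline mice. The lowest LPS mouse was several times above the highest saline mouse. The means were 3010 ± 1054 CPM in LPS mice and 268 ± 48.6 CPM in saline mice, 11.2-fold apart (log2 fold change 3.44 ± 0.26 SE). Ms4a6b (Entrez gene 69774, 11518559 to 11530403), also described in mouse T cells, had 956, 731, 1206, 1556 and 1502 CPM in LPS mice, against 210, 170, 169, 136 and 198 CPM in saline mice. This was the smallest fold of the 6 genes whose groups did not overlap: 1190 ± 353 CPM in LPS mice and 177 ± 28.8 CPM in saline mice, or 6.73-fold (log2 fold change 2.71 ± 0.23 SE). Ms4a6c (Entrez gene 73656, 11469353 to 11487182) had 674, 696, 1239, 1426 and 1969 CPM in LPS mice, against 49.3, 38.1, 47.7, 34.2 and 54.6 CPM in saline mice. Again no LPS mouse came near a saline mouse. Its means of 1201 ± 542 CPM in LPS mice and 44.8 ± 8.40 CPM in saline mice were 26.8-fold apart (log2 fold change 4.64 ± 0.33 SE). Without LPS mouse 4 the folds were 11.1 for Ms4a6d, 6.22 for Ms4a6b and 25.6 for Ms4a6c.

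The 50-base stretches of Ms4a6c were also found in other Ms4a transcripts for 6.08%, those of Ms4a6b for 5.66% and those of Ms4a6d for 2.92%. Of those of Ms4a6c, 55.4% were also found in BE692007, an antisense noncoding gene inside the Ms4a6c locus (11473447 to 11482579), and the use of strand in the counting was not stated. BE692007 had 18.9 ± 11.8 CPM in LPS mice and 1.58 ± 0.687 CPM in saline mice. The split of reads between Ms4a6c and BE692007 is therefore uncertain.

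Ms4a7 and Ms4a14 did not follow the others. Ms4a7 (Entrez gene 109225, 11321039 to 11336146), a macrophage gene that in the mouse brain marks border macrophages, had 1.51, 1.38, 1.86, 2.09 and 3.05 CPM in LPS mice 1 to 5, against 1.19, 4.92, 1.05, 0.312 and 1.28 CPM in saline mice. The groups overlapped through saline mouse 2 alone, which held the highest value of all 10 mice. The means were 1.98 ± 0.663 CPM in LPS mice and 1.75 ± 1.81 CPM in saline mice (log2 fold change 0.56 ± 0.58 SE), a ratio of 1.13 that was 2.07 without saline mouse 2. In that library the 9 border macrophage markers summed to 751 CPM, inside the range of the saline mice. Of the 9, Dab2 (32.2 CPM), Siglec1 (0.933), Folr2 (2.12) and Cd163 (0.679) were the highest of the saline mice, Stab1 (707) was the second highest, Mrc1 (7.89), Cbr2 (0.170) and Pf4 (0.170) were the lowest, and Lyve1 had no counts. The part of border macrophages in the level of Ms4a7 was not tested. Ms4a14 (Entrez gene 383435, 11301249 to 11315877) had 0 counts in the LPS libraries, and its 9 counts in saline mice all came from mouse 2 (0.764 CPM), so it did not pass the filter. Against a floor of 3 counts over the LPS group this is at least 2.87-fold lower in LPS mice, a bound that rests on saline mouse 2, without which both groups were at 0.

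**Figure D1:**
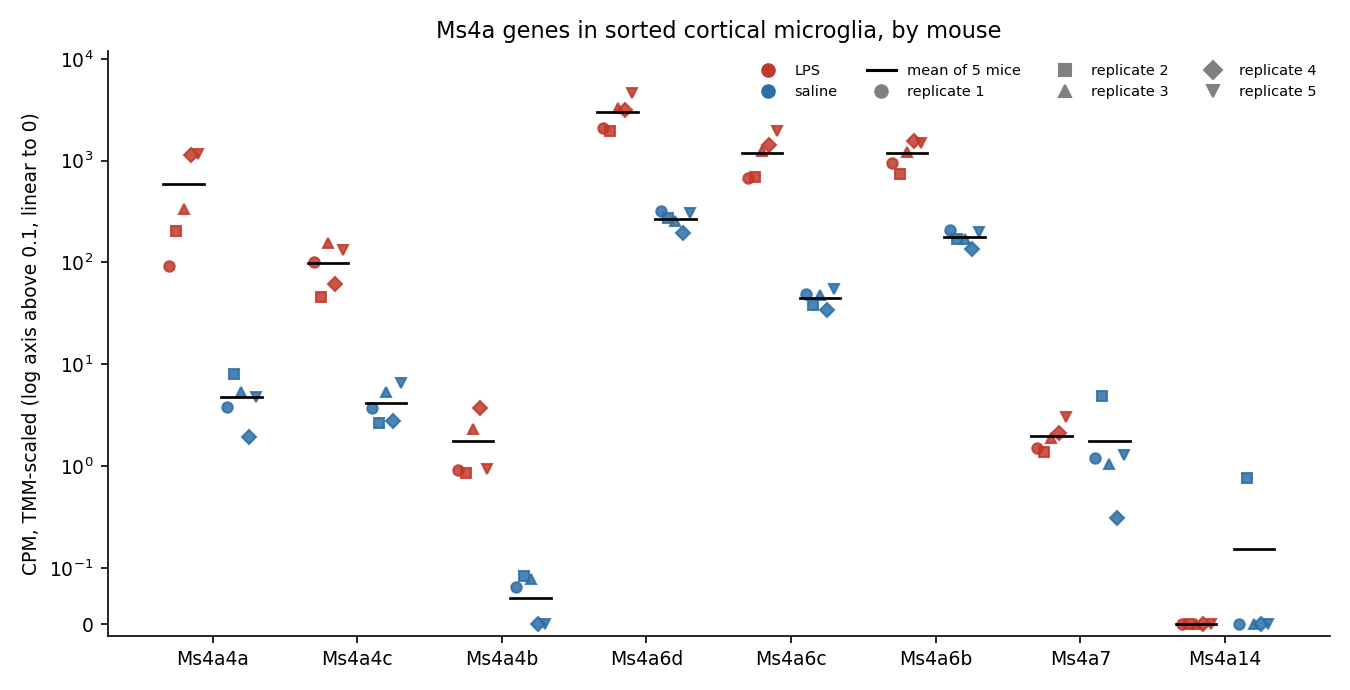
CPM of the 8 listed Ms4a genes in each mouse (log axis above 0.1, linear below), LPS mice in red to the left of saline mice in blue, with symbols for the replicate and bars for the mean of 5 mice. In 6 genes all LPS mice lie above all saline mice; Ms4a7 overlaps through saline mouse 2 at 4.92 CPM, and Ms4a14 has counts in that mouse only.

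Of the 8 genes 7 passed the filter on low counts. The all-gene test called 6 higher in LPS mice and 0 lower, beside 22.4% of all 13793 tested genes called higher and 22.5% called lower. In the same 6 genes all 5 LPS mice lay above all 5 saline mice, which held for 14.1% of tested genes. Since the genes were chosen on this contrast, nothing is read from these shares. By fold change in the same fit, Ms4a4a ranked 15, Ms4a4b 51, Ms4a6c 58, Ms4a4c 68, Ms4a6d 129, Ms4a6b 198 and Ms4a7 5698 among the 13793 genes, from the most raised downwards.

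The sum over the 8 genes was 6092 ± 2387 CPM in LPS mice and 501 ± 86.0 CPM in saline mice, 12.2-fold apart. It ran from 3638 to 9346 CPM in LPS mice and from 370 to 586 CPM in saline mice. The make-up of the sum differed between the groups. Ms4a6d held about the same share, 50.4% ± 4.72 in LPS mice and 53.5% ± 0.907 in saline mice. Ms4a6b held 20.2% ± 3.00 in LPS mice and 35.4% ± 0.962 in saline mice, while Ms4a6c held 19.3% ± 1.43 in LPS mice and 8.96% ± 0.897 in saline mice. Neither pair of ranges overlapped. Ms4a4a held 8.27% ± 5.52 in LPS mice and 0.946% ± 0.432 in saline mice, and its share in single LPS mice ran from 2.36% to 15.6%. Within each mouse the ratio of Ms4a6c to Ms4a6b counts was 0.705 to 1.31 in LPS mice and 0.224 to 0.282 in saline mice, so these neighbours with similar promoters did not differ by the same fold. These are shares of counts, in which longer transcripts weigh more.

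**Figure D2:**
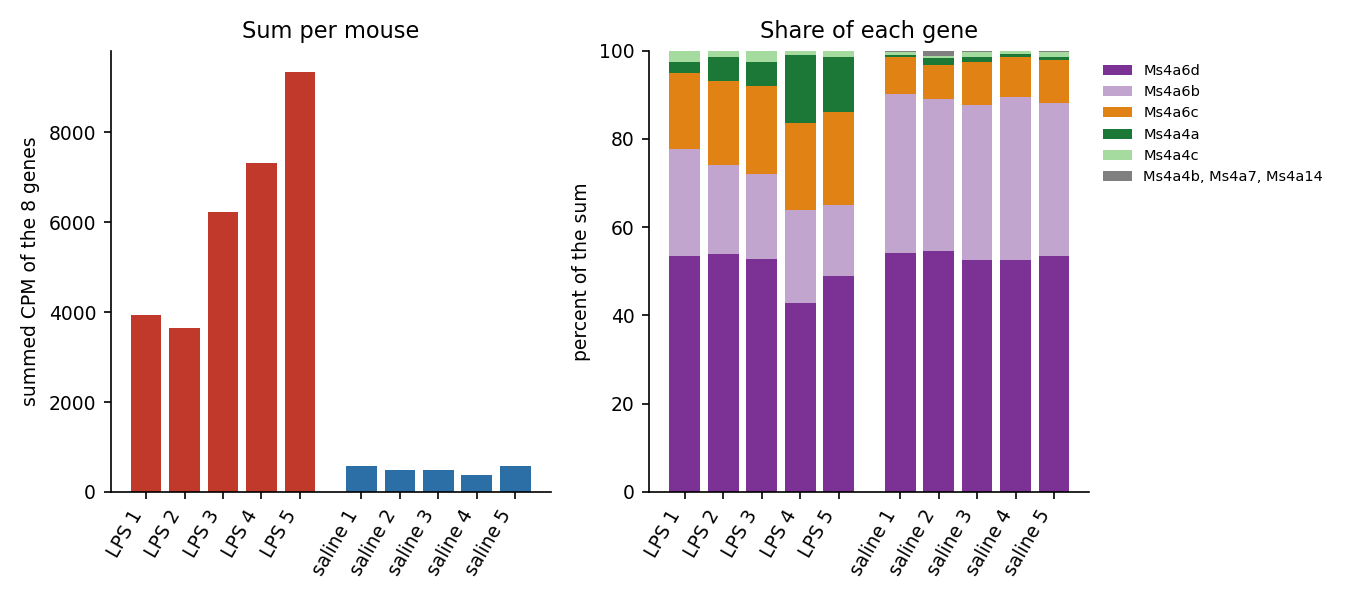
Left, summed CPM of the 8 genes in each mouse, from 3638 to 9346 in LPS mice (red) and from 370 to 586 in saline mice (blue). Right, the percent of that sum held by each gene per mouse; Ms4a6c and Ms4a4a hold larger shares in LPS mice and Ms4a6b a larger share in saline mice, with Ms4a6d near 50.4% in LPS mice and 53.5% in saline mice.

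The spread among LPS mice differed from gene to gene. The coefficient of variation of Ms4a4a was 89.2% in LPS mice and 46.4% in saline mice, with the highest LPS mouse 12.6 times the lowest. Of tested genes 2.39% varied at least as much in LPS mice, as did 0.755% of the 8077 genes that averaged 10 CPM or more there. Because the spread was known when the genes were chosen, the shares in this paragraph are descriptions from which nothing is read. The median gene had a coefficient of 26.1% in LPS mice and 20.1% in saline mice. Ms4a4b had 71.5% in LPS mice from few counts, Ms4a4c 46.6%, Ms4a6c 45.1%, Ms4a6d 35.0%, Ms4a7 33.5% and Ms4a6b 29.6%. Of all tested genes, 42.0% varied at least as much as Ms4a6b and 32.5% at least as much as Ms4a6d. Among genes that averaged 10 CPM or more, whose median coefficient was 20.2%, these shares were 21.6% and 13.1%, with 5.81% for Ms4a6c and 5.44% for Ms4a4c. In saline mice Ms4a6b, Ms4a6c and Ms4a6d varied by 16.3%, 18.8% and 18.1%, below the median of all tested genes. That median includes genes with few counts, and genes of 10 CPM or more were not set apart in saline mice.

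The mice that were high also differed. LPS mouse 5 had the highest level of Ms4a4a, Ms4a6c, Ms4a6d and Ms4a7, LPS mouse 4 that of Ms4a4b and Ms4a6b, and LPS mouse 3 that of Ms4a4c. LPS mouse 1 had the lowest level of Ms4a4a and Ms4a6c but the third highest of Ms4a4c, and LPS mouse 2 had the lowest of the other 5 detected genes. The ratio of Ms4a4c to Ms4a4a counts was 1.10 in LPS mouse 1, 0.466 in LPS mouse 3 and 0.0544 in LPS mouse 4, and ran from 0.330 to 1.42 in saline mice. So these neighbours, both far higher in LPS mice, varied differently among them. Marker levels over the LPS mice are set beside those of Ms4a4a here. The microglial marker sum was 36941, 26125, 26693, 15329 and 20162 CPM in LPS mice 1 to 5. It was highest in LPS mouse 1, where Ms4a4a was lowest, and lowest in LPS mouse 4. Of the 9 neutrophil markers, S100a8 had the same order as Ms4a4a over the LPS mice, with 0, 0.230, 2.02, 6.27 and 9.08 CPM, and at most 0.0849 CPM in saline mice. The others did not share that order. Csf3r, a receptor for a granulocyte growth factor that microglia also express, had 432, 517, 431, 388 and 229 CPM in LPS mice 1 to 5 and 556 to 773 CPM in saline mice, and was called lower (edgeR adjusted p = 0.00578). The chemokine receptor Cxcr2 had 1.34, 6.99, 3.11, 7.99 and 4.70 CPM in LPS mice and at most 0.427 CPM in saline mice, and was called higher (edgeR adjusted p = 0.000108). S100a9, Retnlg, Ngp, Camp, Ly6g and Mmp9 lay at or below 5.70 CPM in all libraries. S100a9, Retnlg and Ngp had 3.55, 4.06 and 5.70 CPM in LPS mouse 4, against at most 0.0776, 0 and 0.502 CPM in the other LPS mice. They were at 0 in LPS mouse 5, where S100a8 was highest. The whole list summed to 243 to 525 CPM in LPS mice and 556 to 773 CPM in saline mice. Csf3r made up most of that sum in every library, so the sum does not describe the other markers. The part of such cells in the level of Ms4a4a was not tested.

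The mouse numbers in the sample names fall into 3 ranges, which the labels do not call batches. In the lowest range, with LPS mice 1 and 2 and saline mice 1 and 2, Ms4a4a was 24.9-fold higher in LPS mice. It was 92.5-fold higher in the middle range, with LPS mouse 3 and saline mice 3 and 4, and 242-fold higher in the highest range, with LPS mice 4 and 5 and saline mouse 5. The other folds moved less: 23.1, 38.8 and 14.9 for Ms4a4c, 15.7, 30.3 and 31.1 for Ms4a6c, 6.91, 14.7 and 12.6 for Ms4a6d, and 4.43, 7.90 and 7.72 for Ms4a6b, in the same order of ranges. Ms4a7 was lower in LPS mice in the lowest range (log2 difference -0.71, with saline mouse 2 in it) and higher in the other ranges (1.44 and 0.91).

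Levels can be compared between genes only per length, and for this the authors' RPKM values were used, in which Ms4a4b and Ms4a14 were not among the listed genes. By mean RPKM, Ms4a6d ranked 27 of 13199 genes in LPS mice and 246 in saline mice, with 2219 ± 779 RPKM in LPS mice and 194 ± 36.5 RPKM in saline mice. Ms4a6b had 649 ± 188 RPKM in LPS mice and 94.7 ± 16.0 RPKM in saline mice, and ranked 86 in LPS mice and 581 in saline mice. Ms4a4a had 594 ± 528 RPKM in LPS mice, where it ranked 98, and 4.77 ± 2.26 RPKM in saline mice, where it ranked 6891. Ms4a6c had 169 ± 76.4 RPKM in LPS mice and 6.19 ± 1.22 RPKM in saline mice, Ms4a4c 55.7 ± 26.0 RPKM in LPS mice and 2.31 ± 0.947 RPKM in saline mice, and Ms4a7 1.16 ± 0.393 RPKM in LPS mice and 1.02 ± 1.06 RPKM in saline mice.

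In LPS mice the order of RPKM levels was thus Ms4a6d, Ms4a6b, Ms4a4a, Ms4a6c, Ms4a4c and Ms4a7. Ms4a6d lay above Ms4a6b, with 1463 RPKM in its lowest LPS mouse and 835 RPKM in the highest LPS mouse of Ms4a6b, and Ms4a4a overlapped both Ms4a6b and Ms4a6c. In saline mice Ms4a6d and Ms4a6b stood apart from the rest, with lowest values of 136.7 and 70.8 RPKM, while Ms4a6c, Ms4a4a, Ms4a4c and Ms4a7 all lay at or below 8.02 RPKM. The place of Ms4a6c depends on the length used. The ratio of its CPM to its RPKM amounts to a length of 7.10 kb, while its GENCODE exons cover 2.05 kb. Divided by the length of 1 GENCODE transcript, mean CPM per kb in LPS mice was 2123 for Ms4a6d, 702.5 for Ms4a4a, 652 for Ms4a6c, 444 for Ms4a6b, 57.7 for Ms4a4c and 1.26 for Ms4a7. So Ms4a6d was the highest and Ms4a4c and Ms4a7 the lowest on both scales, and the order of the other three was not the same.

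**Figure D3:**
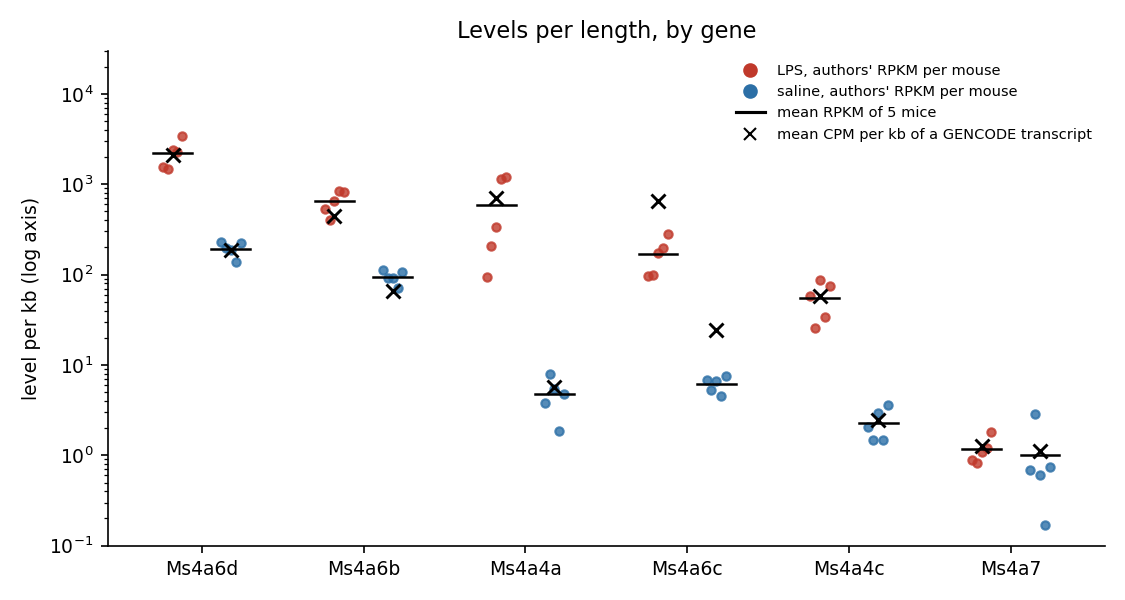
Level per kb on a log axis for the 6 genes with RPKM values: dots are the authors' RPKM in each mouse (LPS red, left; saline blue, right), bars the mean of 5 mice and crosses the mean CPM per kb of 1 GENCODE transcript. Crosses and bars nearly coincide for Ms4a6d, Ms4a4c and Ms4a7, while for Ms4a6c the cross lies above every RPKM value (652 against a mean of 169 in LPS mice).

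For each gene that averaged 5 CPM or more, the 3 genes with the nearest profile were taken from 9793 genes above the same limit. Nearness was the root mean square difference of log2 CPM over the 10 libraries, each gene centred on its own mean, given here without a test because all genes share the same 10 libraries. Nearest to Ms4a4a were Adamtsl4 (0.52), an extracellular matrix protein, Trem1 (0.60), an amplifying receptor of myeloid cells, and Plet1 (0.60). Trem1 had 106 ± 105 CPM in LPS mice and 0.628 ± 0.426 CPM in saline mice, with LPS mouse 4 the highest at 285 CPM and LPS mouse 1 the lowest at 11.9 CPM. Nearest to Ms4a4c were 3 interferon-induced genes: Ifitm3 (0.46), a restriction factor of virus entry, Irf7 (0.51), a transcription factor for interferon genes, and Rtp4 (0.52). Ifitm3 had 400, 149, 456, 131 and 345 CPM in LPS mice 1 to 5, and 7.41 to 12.5 CPM in saline mice, so mice 2 and 4 were its low ones too.

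Nearest to Ms4a6d were Srgn (0.18), the granule proteoglycan serglycin, Ifi30 (0.27), a lysosomal thiol reductase, and Ms4a6b (0.40). Srgn had 2410 ± 935 CPM in LPS mice and 219 ± 43.0 CPM in saline mice. Ms4a6c was nearest to Fxyd5 (0.29), Fcgr4 (0.30), an activating receptor for immunoglobulin G, and Gpr18 (0.40). Ms4a6b was nearest to Cd63 (0.19), a tetraspanin of endosomes, to Cd63-ps (0.19), a pseudogene whose reads may be shared with Cd63, and to Milr1 (0.25). Apart from Ms4a6b near Ms4a6d, no listed gene was among the 3 nearest of another.

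**Figure D4:**
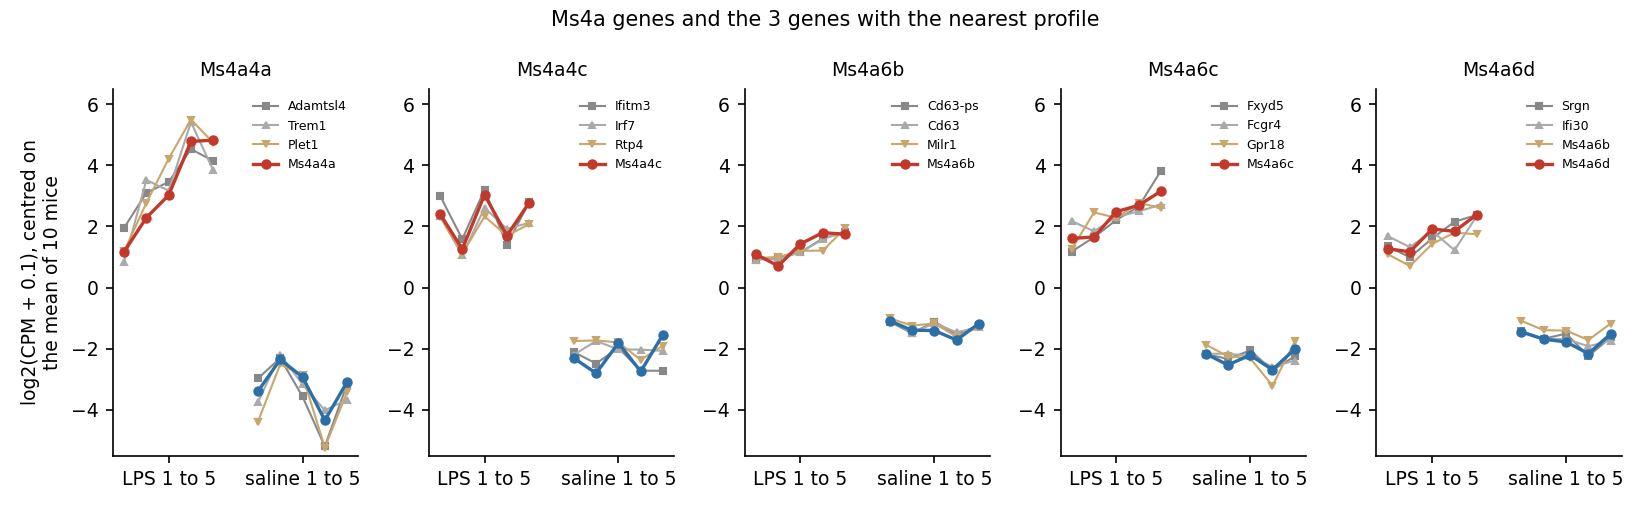
log2(CPM + 0.1), centred on the mean of the 10 mice, for 5 Ms4a genes (red in LPS mice, blue in saline mice) and their 3 nearest genes (grey and tan); lines only join the points of 1 gene, and replicates have no order. Ms4a4a and its neighbours are lowest in LPS mouse 1, while Ms4a4c and its neighbours are low in LPS mice 2 and 4.

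The count table listed 11 other Ms4a genes. No counts were found in any library for 7 of them (Ms4a2, Ms4a3, Ms4a5, Ms4a10, Ms4a12, Ms4a13 and Ms4a18), and the B cell gene Ms4a1 had 1 count in all, so the family's defining genes of B cells and mast cells were at or near 0. Ms4a15 had 1 count in LPS mice and 4 in saline mice. Ms4a4d, which lies among the raised genes, had 7, 6, 21, 54 and 28 counts in LPS mice and 0 in saline mice, at least 40.4-fold higher in LPS mice against a floor of 3 counts over the saline group, and at least 28.3-fold without LPS mouse 4. Ms4a8a had 1, 12, 4, 287 and 61 counts in LPS mice and 0, 3, 0, 0 and 0 in saline mice. Its ratio of 127 (95% interval 43.2 to 620, counting error only) was 35.7 without LPS mouse 4. None of the 11 passed the filter. The related genes Tmem176a and Tmem176b, which encode membrane proteins of antigen-presenting cells, did: Tmem176a had 489 ± 200 CPM in LPS mice and 367 ± 83.2 CPM in saline mice (edgeR adjusted p = 0.227), and Tmem176b had 1078 ± 426 CPM in LPS mice and 821 ± 182 CPM in saline mice (edgeR adjusted p = 0.238). Without LPS mouse 4 both were called higher, with edgeR adjusted p = 0.0152 and 0.0172, and with the length trend removed the log2 fold change of Tmem176a changed sign, from 0.41 to -0.30 (limma adjusted p = 0.31).

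A list of 18 genes linked to MS4A proteins covered receptors, adaptors and signalling partners. Of these 17 were tested, 7 were higher in LPS mice, 4 were lower and 6 were not called. The median log2 fold change was -0.06, beside 0.00 for all tested genes, of which 22.4% were called higher and 22.5% lower. The Fc receptors for immunoglobulin G were all higher. Fcgr4 had 562 ± 125 CPM in LPS mice and 22.5 ± 2.73 CPM in saline mice (25.01-fold, edgeR adjusted p = 2.04e-09; log2 fold change 4.64, or 4.00 with the length trend removed), and Fcgr1, the high-affinity receptor, 1559 ± 411 CPM in LPS mice and 571 ± 104 CPM in saline mice (2.73-fold, edgeR adjusted p = 5.68e-05). Fcgr3, an activating receptor, was 2.60-fold higher (edgeR adjusted p = 1.82e-05) and Fcgr2b, the inhibitory one, 2.08-fold higher (edgeR adjusted p = 9.72e-05).

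Their signalling chain Fcer1g was 2.14-fold higher, with 2702 ± 802 CPM in LPS mice and 1264 ± 294 CPM in saline mice (edgeR adjusted p = 0.0009), a call lost once each library's trend over gene length was removed (limma adjusted p = 0.2). Grn, the lysosomal protein progranulin, was 1.66-fold higher (edgeR adjusted p = 0.000289). Tyrobp, the adaptor of TREM2, was 1.72-fold higher (edgeR adjusted p = 0.009), but with the length trend removed its log2 fold change was -0.12 (limma adjusted p = 0.446), so its direction is not settled. Fcer1a, the ligand-binding chain that pairs with Ms4a2 in mast cells, had no counts.

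Trem2 itself was lower, with 1032 ± 218 CPM in LPS mice and 1576 ± 287 CPM in saline mice, 1.53-fold (edgeR adjusted p = 0.0121), although the groups overlapped. With the length trend removed, its log2 fold change was -1.23 in place of -0.61 (limma adjusted p = 3.12e-06). Inpp5d, a phosphatase that restrains such receptors, was 1.82-fold lower in LPS mice (edgeR adjusted p = 0.000225). Adam17, a protease that sheds TREM2, was 1.72-fold lower (edgeR adjusted p = 0.0011), and the kinase Syk 1.52-fold lower (edgeR adjusted p = 0.00349, and limma adjusted p = 0.18 with the length trend removed). Plcg2, Adam10, Cd33, Clec7a, Ifnar1 and Ifnar2 were not called. Clec7a, which encodes dectin-1, had 10.8 ± 5.86 CPM in LPS mice and 16.9 ± 4.07 CPM in saline mice (edgeR adjusted p = 0.142, and limma adjusted p = 0.0295 with the length trend removed). Cd33, another gene linked to the risk of Alzheimer's disease in humans, had 546 ± 287 CPM in LPS mice and 578 ± 66.4 CPM in saline mice, with LPS mouse 4 at 1032 CPM, and without that mouse it was called lower (edgeR adjusted p = 0.0326).

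Genes that lie inside the cluster or within 500 kb of it numbered 61, of which 21 were tested, 8 were higher in LPS mice, 4 were lower and 9 were not called. Their median log2 fold change was 0.32, beside 0.00 for all tested genes, of which 22.4% were called higher and 22.5% lower. Inside the cluster, the noncoding gene AW112010 (11047612 to 11050566) had 74.3, 58.6, 273, 459 and 374 CPM in LPS mice 1 to 5, against 21.9, 17.5, 13.7, 11.5 and 17.5 CPM in saline mice. It was 15.1-fold higher in LPS mice (edgeR adjusted p = 3.46e-05), with mice 1 and 2 its low ones. With the length trend removed, the log2 fold change of AW112010 was 2.88 in place of 3.92, and that of BE692007 2.91 in place of 3.56; both stayed called (limma adjusted p = 0.000302 and 9.18e-05). BE692007 was 11.98-fold higher (edgeR adjusted p = 1.53e-05), and Gm8369 (11488955 to 11512577), a coding gene between Ms4a6c and Ms4a6b with 7.42 ± 5.58 CPM in LPS mice and 0.372 ± 0.319 CPM in saline mice, 19.9-fold (edgeR adjusted p = 0.000136).

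Among tested genes outside the cluster the differences were smaller. Some that did not pass the filter differed widely on few counts. Cd5 had 3 counts in LPS mice and 54 in saline mice, A430093F15Rik 2 and 24, and Ptgdr2 14 and 0. With no filter beyond 1 count, 10 genes of the list were called higher and 6 lower. Ccdc86, a nucleolar protein gene that lies just before the first Ms4a gene, had 81.4 ± 5.32 CPM in LPS mice and 12.1 ± 1.86 CPM in saline mice (6.70-fold, edgeR adjusted p = 1.25e-08), with little spread among LPS mice. Slc15a3, a peptide and histidine transporter of endosomes, was 2.17-fold higher (edgeR adjusted p = 3.91e-05) and Tmem109 1.35-fold higher (edgeR adjusted p = 0.0131). Mrpl16, a mitochondrial ribosomal protein gene, was 1.63-fold higher (edgeR adjusted p = 0.00173), a call lost with the length trend removed (limma adjusted p = 0.566). Cyb561a3, a lysosomal cytochrome, was 2.16-fold lower in LPS mice (edgeR adjusted p = 0.000953), Ddb1, a DNA damage binding protein, 1.78-fold lower (edgeR adjusted p = 0.000252), Cpsf7, a cleavage factor of messenger RNA, 1.62-fold lower (edgeR adjusted p = 0.00491) and Patl1, a messenger RNA decay factor, 1.42-fold lower (edgeR adjusted p = 0.0394). The call of Patl1 was lost in 9 of 19 other settings, among them without LPS mouse 1, 3 or 5 and without saline mouse 1, 2, 3 or 4. The eighth raised gene was Tmem132a. Like Gm8369, Cd5, A430093F15Rik and Ptgdr2, it was named after its values were seen.

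**Figure D5:**
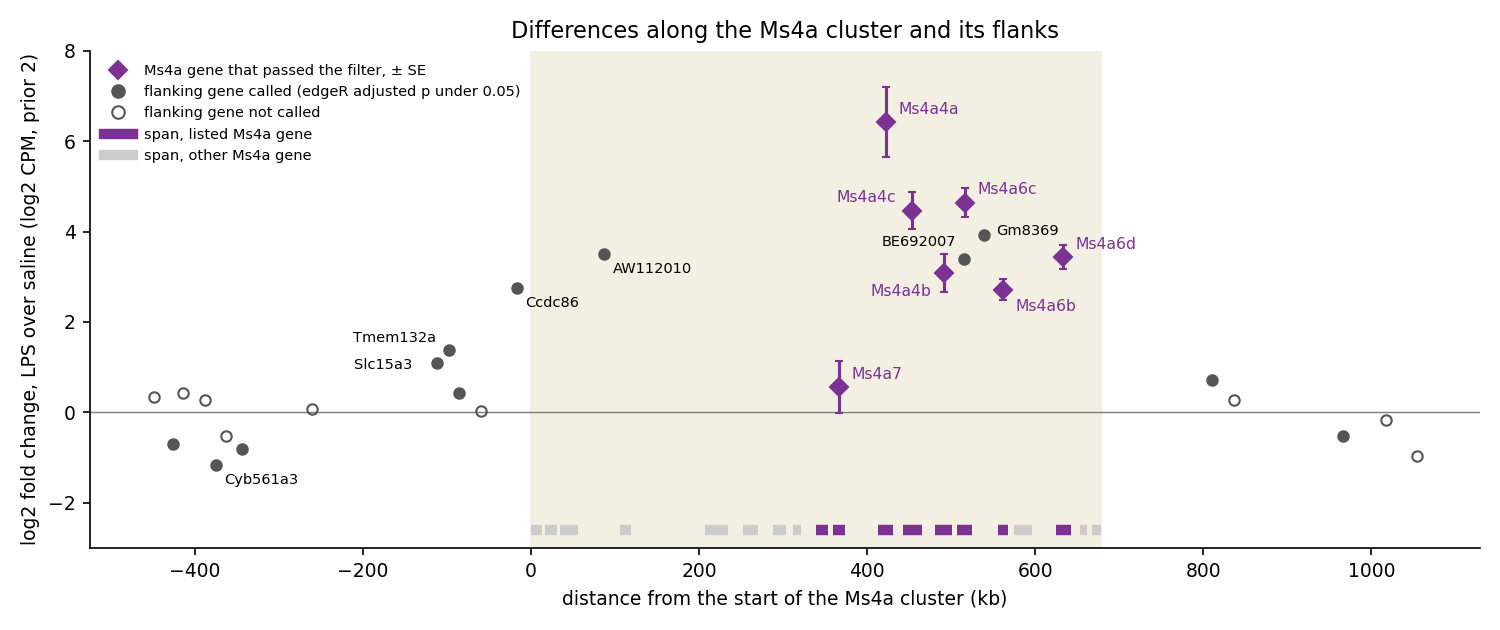
log2 fold change, LPS over saline, of the 7 Ms4a genes that passed the filter (diamonds, ± SE) and of 21 tested flanking genes (filled where called by edgeR) against distance from the start of the cluster in kb; bars at the bottom mark the spans of all 19 Ms4a genes. The 6 raised Ms4a genes lie within 229.3 kb, with BE692007 and Gm8369 among them, and Ms4a7 beside them has a log2 fold change of 0.56.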

How the data were processed

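RNA of sorted cortical microglia was measured in 5 LPS and 5 saline mice; SMARTer amplification of 5 ng RNA and Ovation libraries from 6 ng of product are described per the labels' protocols, with no molecular identifiers named. The authors deposited a raw count table; per the submitters' processing notes, counting used featureCounts and the genome was GRCm38 (mm10). Not given in the sources used here are the aligner, versions, annotation and strand setting. RPKM tables of 13199 and 10789 genes, normalised and deposited by the authors, served as levels per length only. Of the gene IDs 37655 were found in RefSeq (GRCm38.p6), and 13224 of 40789 genes had no count in any library. The members and gene lists were chosen with earlier results of these data known.

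The test was that of edgeR 4.0.16 under R 4.3.3 (TMM, filterByExpr, quasi-likelihood F test, Benjamini-Hochberg over 13793 genes at 0.05, no covariate), after the script had been tested on simulated data. No p is given for the listed genes. log2 fold changes and SE come from log2 CPM with a prior count of 2. Named were all listed genes, other Ms4a and Tmem176 genes that passed the filter, the linked genes, the 3 nearest profiles at 5 CPM or more, called flanking genes with that mean, and the 2 highest markers of lists discussed; further names follow from counts. Motifs and proteins were compared in Python 3.11.15; the planned RefSeq proteins were replaced by translations of GENCODE M21 transcripts. Alternatives were RLE, upper quartile or no scaling factors, limma-voom (limma 3.58.1), DESeq2 1.42.0, a CPM filter or none, mouse-number ranges as a term, RPKM with pseudocounts of 1 and 0.1, removal of each library's length trend, and each mouse left out. For the linked and flanking genes these were added after seeing the data.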

Additional observations from a re-analysis of the deposited data

Results flagged for a closer look

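Of 84 groups of 5 mice in which the highest and the lowest mouse were compared with the rest, 11 held a mouse that stood apart by Dixon's criterion. Chance meets it in about 1 in 20 independent groups of normally distributed values. Here the groups share libraries, and a group in which 1 mouse alone has counts always meets it. Such were Ms4a14, Ms4a8a and Ms4a15 in saline mice and Ms4a15 in LPS mice, so nothing is read from the number of groups. Among LPS mice, LPS mouse 4 was the one that stood apart in every case. It had 39.3 CPM of BE692007 (10.3 to 17.7 CPM in the other LPS mice), 17.2 CPM of Gm8369 (3.01 to 5.98 CPM), 18.2 CPM of Ms4a8a (0.0837 to 4.77 CPM), 610 CPM of Inpp5d (427 to 478 CPM) and 0.0634 CPM of Ms4a15 (0 in the others). In the same library the neutrophil genes S100a9, Retnlg and Ngp had 3.55, 4.06 and 5.70 CPM, against at most 0.0776, 0 and 0.502 CPM in the other LPS mice. The part of neutrophils in these values was not tested.

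Among saline mice, mouse 2 had 4.92 CPM of Ms4a7 (0.312 to 1.28 CPM in the others), 0.764 CPM of Ms4a14 (0 in the others) and 0.255 CPM of Ms4a8a (0 in the others). Saline mouse 1 had 2750 CPM of Fcgr3 (2199 to 2333 CPM in the others) and 92.9 CPM of Slc15a3 (76.8 to 81.3 CPM), and saline mouse 4 had 0.25 CPM of Ms4a15 (0 in the others). The values of Ms4a8a, Ms4a14 and Ms4a15 in saline mice, and of Ms4a15 in LPS mouse 4, rest on 1 to 9 counts.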

How the results depend on the processing

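Direction held for Ms4a4a, Ms4a4b, Ms4a4c, Ms4a6b, Ms4a6c and Ms4a6d under every alternative run for them. In that order, log2 fold changes were 5.80 to 6.93, 2.78 to 3.26, 4.01 to 4.71, 2.44 to 2.87, 4.43 to 5.07 and 2.95 to 3.57. The low ends of Ms4a4a, Ms4a6b and Ms4a6d and the high end of Ms4a6c came with the length trend removed. That setting took lengths from counts over the authors' RPKM, for Ms4a6c the 7.10 kb that is far above its exons. Ms4a7 ran from 0.15 to 1.02. The number of other Ms4a and Tmem176 genes called higher was 0, and became 2 with no filter beyond 1 count and 2 without LPS replicate 4 (range over mice left out 0 to 2). The first pair is Ms4a4d and Ms4a8a, which the filter had kept from the test; the second is Tmem176a and Tmem176b, and the cause was not tested. With the length trend removed, 5 named genes changed sign: Tyrobp from 0.78 to -0.12, Ifnar1 from -0.07 to 0.35, Tmem176a from 0.41 to -0.30, Plcg2 from -0.11 to 0.17 and Adam10 from -0.06 to 0.27 (log2 fold change). Tyrobp lost its call and Ifnar1 gained one (limma adjusted p = 0.446 and 0.0406), and the other three were called in neither fit. Cd33, Ifnar1 and Ifnar2, none called in the edgeR fit, also changed sign near 0 in other settings. Calls over all genes ran from 2523 to 3607 higher and from 2595 to 3559 lower. No paired analysis was possible because the labels give the groups no shared replicate numbers. Depth limits Ms4a4b, Ms4a7, Ms4a14 and the other Ms4a genes, whose folds rest on few counts of amplified RNA.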
